A study of Mus musculus with 12 samples.

Results

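The 6 RNA-seq libraries described here came from type II alveolar epithelial (AT2) cells of Sftpc-Cre;AhRfl/fl mice, which were cultured for 24 h with cockroach extract (CRE) or with PBS. They were chosen by their labels, genotype KO with treatment CRE (3 libraries) or PBS (3 libraries), out of 12 libraries in all. The other 6 libraries hold the same treatments of AT2 cells from AhRfl/fl mice, which carry the floxed AhR gene and no Cre. Mice of both lines were on a C57BL/6 background and were used at 6 to 8 weeks of age. Cre in the KO mice was driven by the Sftpc promoter, so that the floxed gene is deleted only in cells that have used this promoter, and both genotypes share the floxed alleles. The cells were obtained by dispase digestion, removal of cells bearing CD16/32, CD45, Ter119 or Sca-1, and panning on IgG, and were then plated on collagen I. CRE was given at 50 µg/ml. The labels do not say whether the 3 replicates of a group came from separate animals. The p-values below therefore measure the spread between cultures, which may be in part technical. Unless stated otherwise, this spread was estimated over all 12 libraries.

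AT2 cells make surfactant and serve as progenitors of the flat type I (AT1) cells of the alveolus. They also respond to inhaled material: receptors for microbial products and proteases signal through NF-κB, whose target genes include neutrophil-attracting chemokines, cytokines and the inhibitors that end the signal. Electrophiles and oxidants act through the transcription factor NRF2, which raises glutathione synthesis and detoxifying enzymes. AhR, the aryl hydrocarbon receptor, binds small aromatic ligands and then switches on its own battery of detoxifying genes, among them Cyp1a1 and Nqo1. The comparison of CRE with PBS in the KO cells asks which genes respond to the extract when AhR has been deleted from Sftpc-expressing cells.

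Ahr itself was counted at 49.6, 40.2 and 45.7 CPM (counts scaled to a common library size by TMM) in the PBS libraries of replicates 1, 2 and 3, and at 51.5, 37.7 and 49.5 CPM in the CRE libraries. AhRfl/fl cells had 42.9, 43.8 and 45.1 CPM with PBS and 56.2, 50.5 and 50.1 CPM with CRE. The PBS levels of the genotypes therefore overlapped. The deposited count covers the whole gene, and reads of a transcript that lacks the deleted exon are counted with the rest, so this count does not check the deletion. Total counts of the 6 libraries lay between 73326817 and 80935797, at which 3 counts, the floor used here for a gene that is absent, correspond to at most 0.0409 CPM.

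The AT2 identity of the cells was checked against marker genes. None of the 17 AT2 markers was at 0 in all 6 libraries, but the same held for every other list of markers, so this does not single out AT2 cells. Sftpc, the surfactant protein C gene, was at 3086, 4591 and 6183 CPM with PBS and 3216, 4631 and 6492 CPM with CRE, so the groups overlapped, and replicate 3 was highest in both. Markers of other epithelial cells were also present: Scgb1a1, the defining secretory protein of club cells, had a mean of 11419 FPKM with PBS against 4057 FPKM for Sftpc, and the ciliated cell regulator Foxj1 had 27.3 FPKM. On the same per-length scale the summed AT2 markers lay between 5452 and 9808 FPKM with PBS and the summed club cell markers between 9111 and 15852. The summed AT1 markers lay between 969 and 1340 FPKM with PBS, and the summed leukocyte markers between 59.9 and 160. Leukocyte markers differed between replicate numbers. Their sum was 635 CPM with PBS and 690 CPM with CRE in replicate 1, against 265 to 295 CPM in the other 4 libraries, and none of the 12 genes was called. The lymphocyte markers followed the same order, at 157 and 156 CPM in replicate 1 and 34.2 to 57.8 CPM in the others. In a principal component analysis of the 6 libraries, PC1 (39.8% of the variance) and PC2 (22.4%) separated the replicate numbers, and PC3 separated CRE from PBS.

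The genes raised by CRE included neutrophil-attracting chemokines, antimicrobial proteins, NF-κB inhibitors and enzymes of glutathione metabolism, and CRE lowered a small set of genes that included 2 collagens. Of 20612 genes tested with edgeR's quasi-likelihood test, 54 were called at a Benjamini-Hochberg adjusted p under 0.05, which is 0.262% of the genes. CRE was higher in 47 of them (0.228%) and lower in 7 (0.034%). For the genes called higher the median log2 fold change was 1.10, and 30 of them rose more than 2-fold and 7 more than 4-fold. All 54 had 3 CRE libraries that did not overlap the 3 PBS libraries, as had 11.8% of all genes tested (6.49% higher and 5.35% lower). Without an overlap the 3 pairs of replicates must all move in the same direction, so that adds nothing for the 54. An unadjusted p under 0.05 was found for 6.48% of the genes. Across all genes tested, the median log2 fold change was -0.003. The test took its spread from all 12 libraries, including those of AhRfl/fl cells. A fit to the 6 KO libraries alone called 13 genes, and 8 of the 54 were still called in it.

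The replicate number paired the CRE and PBS libraries of the KO cells. For the AhRfl/fl libraries the same pairing was assumed and not checked. A fit with this pairing as a block called 439 genes (2.13%), 275 higher (1.33%) and 164 lower (0.796%), and these included all 54. The 385 genes added by the block had a median absolute log2 fold change of 0.48 against 0.52 for all 439. Among the added genes the groups did not overlap in 244 and overlapped in 141. By the rule of the study's methods, limma-trend with an unadjusted p under 0.05 and an absolute log2 fold change above 0.5, 380 genes were higher (1.84%) and 316 lower (1.53%), 696 genes in all (3.38%). The block on the 6 KO libraries alone called 163 genes. Of 82 gene list members called only with pairing, it called 35 and lost 47. Those kept were Adgre1, Ager, Aldh1a1, Ano1, Areg, Cat, Ccl22, Ccl3, Clic5, Clu, Col4a2, Cxcl10, Cxcl3, Cybb, Duox2, Emp2, Hmox1, Il1a, Il1b, Il33, Itgax, Lgals3, Mgp, Mmp3, Muc1, Ndrg1, Nfe2l2, Nqo1, Prdx1, Scnn1b, Sfn, Slc7a11, Sqstm1, Tgfb2 and Tgfb3. The other members described below as called with pairing were called only in the fit to all 12 libraries. Results below are from the fit without the block, and the value with pairing is given where it changes a call.

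**Figure D1:**
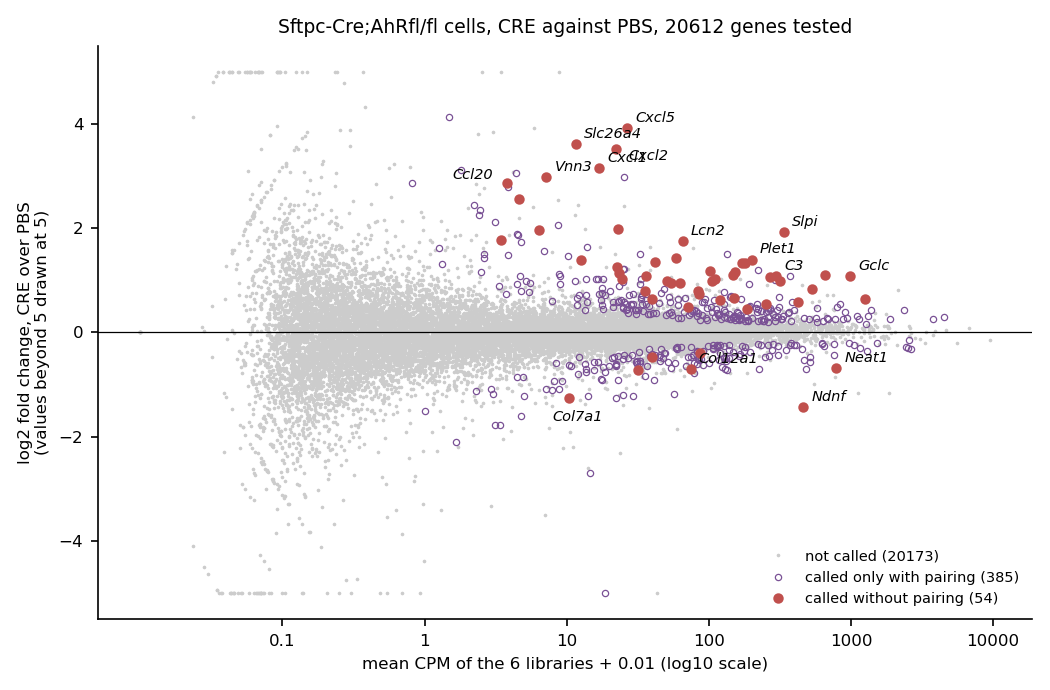
Log2 fold change of CRE over PBS against the mean CPM of the 6 Sftpc-Cre;AhRfl/fl libraries (with 0.01 added, on a log10 axis), 1 point per gene. Filled points are the 54 genes called by edgeR and open points the 385 called only with pairing, whose median absolute log2 fold change was 0.48.

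The number of calls leaned on single libraries. Without PBS replicate 2 it was 23, without CRE replicate 3 it was 26, and without CRE replicate 2 it was 28. Leaving out CRE replicate 1, PBS replicate 1 or PBS replicate 3 gave 62, 43 and 37. Of the 54 genes, 16 were called in all 6 of these fits: Cxcl5, Slc26a4, Vnn3, Vnn1, U90926, Slpi, Plet1, Slc39a4, Tnfrsf11b, Gclc, Gclm, Gsta3, Gsta4, Nfkbia, C3 and Slc11a2. Of the 54, the fit that left out CRE replicate 1, 2 or 3 lost 8, 28 or 29 genes, and the one that left out PBS replicate 1, 2 or 3 lost 19, 35 or 23. None of the 54 changed direction in any of the 16 alternative fits.

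Chemokines that bind the neutrophil receptor CXCR2 were among the genes with the largest called changes. Of the 6 ELR CXC chemokines, 3 were called and all of these rose, and the median log2 fold change of the 6 was 3.06. Cxcl5 was at 4.90, 2.47 and 2.60 CPM in the 3 PBS libraries and at 59.0, 52.7 and 38.6 CPM in the 3 CRE libraries. The lowest CRE library thus held several times the highest PBS library. This was a log2 fold change of 3.91 ± 0.37 (SE; edgeR adjusted p = 0.00225), or 15.1-fold. Cxcl2 rose from 3.96, 2.27 and 4.57 CPM to 38.2, 33.4 and 51.7 CPM, a log2 fold change of 3.51 ± 0.44 (edgeR adjusted p = 0.00826). Cxcl1 rose from 4.33, 2.19 and 3.76 CPM to 20.9, 23.8 and 46.2 CPM, with the CRE library of replicate 3 standing highest. Its log2 fold change was 3.15 ± 0.45 (edgeR adjusted p = 0.0186, and at most 0.0970 with 1 library left out). Cxcl3, a neighbour of these genes in the chemokine cluster of chromosome 5, went from 7.97, 3.93 and 5.26 to 67.4, 35.5 and 32.0 CPM without an overlap. It was called only with pairing, with a log2 fold change of 2.95 ± 0.19 (edgeR adjusted p = 0.00192, against 0.175 without). Cxcl15, the lung-specific member known as lungkine, had 233 ± 97.8 CPM with PBS and 250.3 ± 105 CPM with CRE (mean ± SD, n = 3) and was not called, and Ppbp was not called either.

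Of 19 tested genes among the other chemokines, 1 was called: Ccl20, the ligand of CCR6 that draws dendritic cells and Th17 cells. Its level was 1.15, 0.754 and 0.828 CPM with PBS and 8.85, 6.98 and 4.14 CPM with CRE, a log2 fold change of 2.87 ± 0.39 (edgeR adjusted p = 0.0127, and at most 0.0917 with 1 library left out). With pairing, Ccl2, Ccl3, Ccl7, Ccl22 and Cxcl10 were also called higher and Ccl6 lower. Of these, Ccl3, Ccl6 and Ccl22 were highest in replicate 1 of both groups, the pair with the most leukocyte markers. Ccl22, which attracts CCR4-bearing T cells, was at 34.6, 7.31 and 9.31 CPM with PBS and 90.3, 24.9 and 29.9 CPM with CRE, and rose in each pair, with log2 ratios of 1.38, 1.76 and 1.68. The interferon-inducible chemokine Cxcl10 lacked that order, at 11.1, 11.7 and 15.0 CPM and 19.1, 19.7 and 29.5 CPM, and its log2 fold change with pairing was 0.84 ± 0.08 (edgeR adjusted p = 0.00518). The part of leukocytes in these changes was not tested.

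The promoters of the induced genes were searched for short sequence patterns, since NF-κB, NRF2, the metal-sensing factor MTF-1 and AhR each bind a known one. The RefSeq table (GRCm38.p6) holds 300 bases around the start of the gene, 250 before and 50 after, for 32 of the 47 genes called higher and for 3 of the 7 called lower. The κB pattern, GGG with any 2 bases and then TTTCC, searched on both strands as were the others, was 1 of 9 patterns searched and was found for 7 of the 32 genes (21.9%), namely Ccl20, Cxcl1, Cxcl2, Gtse1, Nfkbia, Pglyrp1 and Prnd, against 1.89% of all genes of the table and 2.05% of the tested ones. A shorter κB form, GGGNNTTCC, was found for 6 of the 32 (18.8%), among them Ccl20 but not Cxcl1, Cxcl2 or Nfkbia, against 8.28% of the tested genes. The longer form was found for 17 of 213 genes called higher with pairing (7.98%) and for none of the 121 called lower with pairing. The 4 windows below are those of chemokines and of the NF-κB inhibitor, with the κB pattern in capitals. They are written 5′ to 3′ on the strand of the gene and end 50 bases into the transcript.
Cxcl1 (chr5:90890995-90891294, + strand): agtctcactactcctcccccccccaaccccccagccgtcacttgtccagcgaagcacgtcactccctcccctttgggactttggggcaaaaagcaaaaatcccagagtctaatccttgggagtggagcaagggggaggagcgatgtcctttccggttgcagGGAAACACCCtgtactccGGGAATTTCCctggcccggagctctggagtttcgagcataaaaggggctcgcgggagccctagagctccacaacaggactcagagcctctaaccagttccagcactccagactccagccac
Cxcl2 (chr5:90903649-90903948, + strand): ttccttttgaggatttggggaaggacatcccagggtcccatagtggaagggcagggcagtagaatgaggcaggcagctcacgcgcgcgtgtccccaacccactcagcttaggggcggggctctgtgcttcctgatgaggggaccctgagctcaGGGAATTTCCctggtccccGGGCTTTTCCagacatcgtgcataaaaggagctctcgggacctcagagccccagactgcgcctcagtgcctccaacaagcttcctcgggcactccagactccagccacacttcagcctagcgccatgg
Ccl20 (chr1:83116516-83116815, + strand): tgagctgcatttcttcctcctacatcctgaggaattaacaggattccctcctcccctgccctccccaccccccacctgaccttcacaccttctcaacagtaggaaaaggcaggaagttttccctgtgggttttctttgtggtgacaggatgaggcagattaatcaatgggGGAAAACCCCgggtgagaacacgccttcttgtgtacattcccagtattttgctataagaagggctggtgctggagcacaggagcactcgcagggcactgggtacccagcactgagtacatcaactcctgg
Nfkbia (chr12:55492598-55492897, − strand): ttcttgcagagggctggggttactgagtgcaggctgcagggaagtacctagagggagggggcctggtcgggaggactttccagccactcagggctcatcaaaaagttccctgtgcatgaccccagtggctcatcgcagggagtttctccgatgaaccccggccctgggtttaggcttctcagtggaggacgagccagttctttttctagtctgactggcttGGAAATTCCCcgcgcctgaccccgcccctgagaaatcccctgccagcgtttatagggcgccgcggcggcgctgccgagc
Cxcl1 and Cxcl2 each held 2 matches, of which the nearest to the start were 61 and 68 bases before it. The match was 70 bases before the start in Ccl20 and 19 bases before it in Nfkbia. A match is a description of the letters and does not show that a factor binds there. Cxcl5 has no entry in the table. The antioxidant response element TGACNNNGC was in 18.8% of the 32 windows against 16.7% of tested genes, the metal response element TGCGCNC or TGCACNC in 34.4% against 38.3%, and the core of the dioxin response element bound by AhR, GCGTG, in 40.6% against 51.4%. The longer form of the last, TTGCGTG, was in none of the 32 windows and in 1.89% of tested genes.

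**Figure D2:**
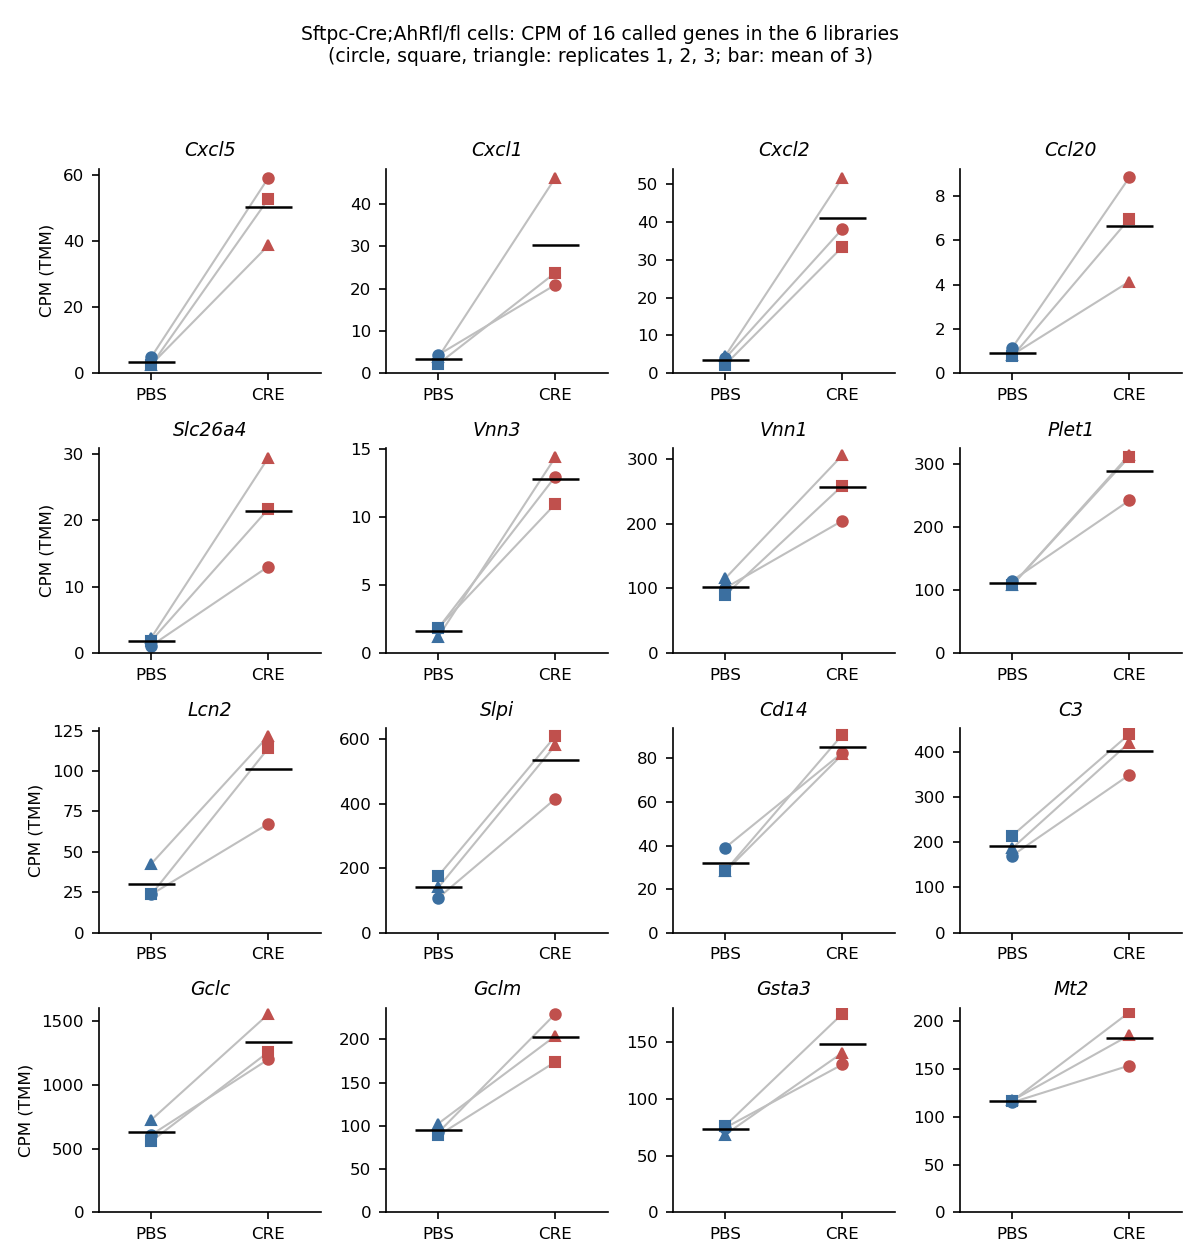
CPM (TMM-scaled, linear axes from 0) of 16 genes called higher with CRE in each of the 6 Sftpc-Cre;AhRfl/fl libraries. Lines join the PBS and CRE libraries of the same replicate and black bars are the mean of 3; in every panel all 3 CRE points lie above all 3 PBS points.

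Several inhibitors of NF-κB signalling rose. Of the 25 genes of subunits and feedback inhibitors 4 were called, all higher, and 23 had a log2 fold change above 0 (median 0.33). Nfkbia encodes IκBα, which holds NF-κB in the cytoplasm and is itself a target. It was at 72.7, 74.1 and 66.8 CPM with PBS and 139, 151 and 134 CPM with CRE, 1.98-fold higher (edgeR adjusted p = 0.000838). Zc3h12a, the RNase Regnase-1 that degrades cytokine transcripts, rose from 13.2, 7.54 and 7.37 CPM to 33.9, 40.0 and 36.6 CPM, a log2 fold change of 1.97 ± 0.25 (edgeR adjusted p = 0.00826). Nfkbiz, the nuclear cofactor IκBζ, rose by 1.35 ± 0.19 on the log2 scale. Tnip3, an A20-binding inhibitor, rose by 1.06 ± 0.16. The subunits Nfkb1, Nfkb2 and Rel, with Birc3 and Tnip1, were called only with pairing, at log2 fold changes of 0.33, 0.28, 0.44, 0.72 and 0.33. Rela, Chuk and Ikbkb were not called in either fit. Tnfaip3, the deubiquitinase A20, had 28.2, 47.2 and 49.1 CPM with PBS and 91.9, 41.4 and 45.0 CPM with CRE, so its groups overlapped and only the CRE library of replicate 1 stood out.

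Among 25 pattern-recognition and protease-activated receptor genes, Cd14, the lipopolysaccharide co-receptor, was the 1 gene called. It rose from 39.0, 28.4 and 28.1 CPM to 82.6, 90.8 and 81.8 CPM, 2.67-fold (edgeR adjusted p = 0.0207, and at most 0.108 with 1 library left out). Tlr2 was called with pairing (log2 fold change 0.55 ± 0.07). Tlr4, the receptor that CD14 serves, had 41.9 ± 5.55 CPM with PBS and 48.5 ± 11.2 CPM with CRE (mean ± SD, n = 3) and was not called. The same held for F2rl1, the protease-activated receptor PAR-2, at 135 ± 12.2 and 115 ± 4.43 CPM.

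Cytokine genes were not called without pairing, although most were higher with CRE. Of 21 tested, 19 had a log2 fold change above 0 and the median was 0.94. In the edgeR test 0 were called, 8 had an unadjusted p under 0.05, limma-voom called 0 and DESeq2 called 5. With pairing 7 were called, all higher: Csf3, Il1a, Il1b, Il1f9 (which encodes IL-36γ), Il33, Il6 and Tnf. The part of leukocytes, whose markers were highest in replicate 1, was not tested for these either. Il33, the epithelial alarmin that activates type 2 innate lymphoid cells, was at 10.7, 15.2 and 20.0 CPM with PBS and 25.5, 35.8 and 44.6 CPM with CRE. Every CRE library was above every PBS library, and the log2 ratios of the 3 pairs, 1.25, 1.24 and 1.15, were closer to each other than the levels were. Its log2 fold change with pairing was 1.22 ± 0.06 (edgeR adjusted p = 0.00085, against 0.264 without). The interleukin-1 genes were highest in replicate 1 of both groups. Il1b was at 7.14, 1.52 and 1.51 CPM with PBS and 28.2, 8.27 and 5.78 CPM with CRE, so the PBS library of replicate 1 was above the CRE library of replicate 3, and with pairing its log2 fold change was 2.12 ± 0.21 (edgeR adjusted p = 0.00599). Il1a was at 1.61, 0.742 and 0.583 CPM and 12.0, 4.30 and 3.99 CPM, and rose by 2.74 ± 0.25 with pairing (edgeR adjusted p = 0.00415). Il6 went from 2.55, 1.92 and 1.38 CPM to 7.28, 5.31 and 8.80 CPM without an overlap (log2 fold change with pairing 1.87 ± 0.30, edgeR adjusted p = 0.0290). Csf3, the granulocyte growth factor G-CSF, went from 0.736, 0.535 and 0.583 to 2.10, 1.57 and 2.05 CPM, also without an overlap (edgeR adjusted p = 0.0144 with pairing, 0.0951 without). Tslp, another alarmin, was low, at 0.241, 0.316 and 0.353 CPM with PBS and 0.102, 0 and 0.105 CPM with CRE, and was called in neither fit.

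**Figure D3:**
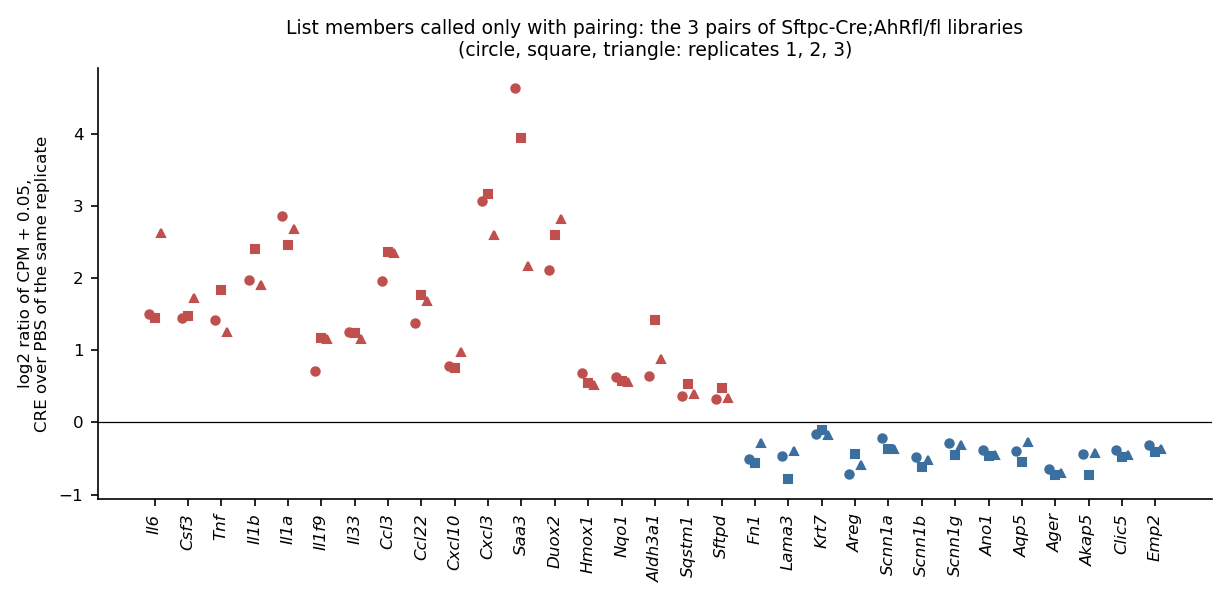
Log2 ratio of CPM + 0.05, CRE over PBS of the same replicate, for 31 list members called only with pairing, in Sftpc-Cre;AhRfl/fl cells. Circles, squares and triangles are replicates 1, 2 and 3, and red genes were called higher and blue genes lower. For each gene all 3 symbols lie on the same side of 0, as for all 439 genes called with pairing, which were chosen by these pairs.

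Among secreted antimicrobial and acute-phase proteins 2 of 20 tested genes were called, both higher, while 6 of the 20 had a log2 fold change below 0 and the median was 0.19. Slpi, the secretory leukocyte protease inhibitor, was at 108, 176 and 140.3 CPM with PBS and 415, 609 and 581 CPM with CRE, a log2 fold change of 1.92 ± 0.20 (edgeR adjusted p = 0.00452). Lcn2, lipocalin-2, which withholds iron from bacteria, rose from 23.7, 23.7 and 42.7 to 67.4, 114 and 122 CPM, 3.37-fold (edgeR adjusted p = 0.0265, and at most 0.120 with 1 library left out). With pairing Saa3, Chil1 and Hp were added, and Saa3, an acute-phase apolipoprotein, went from 0.102, 0.195 and 0.176 CPM to 3.72, 3.69 and 0.970 CPM, with the CRE library of replicate 3 lowest. Outside that list, Pglyrp1, which binds bacterial peptidoglycan, rose from 2.96, 2.49 and 2.36 to 6.79, 11.8 and 11.8 CPM (3.89-fold). C3, the central complement component, rose from 171, 215 and 187 to 349, 439 and 421 CPM, a log2 fold change of 1.08 ± 0.12 (edgeR adjusted p = 0.00694). It was the 1 gene called of 20 complement genes, whose median was -0.28. Cfb was called higher with pairing (1.07 ± 0.19).

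Slc26a4, the anion exchanger pendrin that moves bicarbonate and thiocyanate into the airway liquid, had the second largest change among the called genes. It was at 1.09, 1.84 and 2.31 CPM with PBS and 13.0, 21.7 and 29.4 CPM with CRE, 12.2-fold higher (edgeR adjusted p = 0.00393), and the order of the 3 replicates was the same in both groups. Duox2, the dual oxidase that supplies peroxide at the same surface, was at 0.152, 0.146 and 0.285 CPM and 0.825, 1.13 and 2.31 CPM. Its groups did not overlap, and its log2 fold change of 2.86 ± 0.68 was called only with pairing (edgeR adjusted p = 0.0245, against 0.204). Noxo1, an organizer subunit of NADPH oxidase 1, was at 1.23 ± 0.395 CPM with PBS and 2.96 ± 0.118 CPM with CRE (mean ± SD, n = 3) and was called in neither fit (edgeR adjusted p = 0.123, and 0.0618 with pairing). None of the 12 tested oxidase genes was called without pairing, where 3 had an unadjusted p under 0.05, limma-voom called 0 and DESeq2 called 2. The other ion transport genes differed in direction. With pairing, the 3 subunits of the epithelial sodium channel fell, with log2 fold changes of -0.32 for Scnn1a, -0.54 for Scnn1b and -0.35 for Scnn1g, as did the chloride channel Ano1 (-0.43) and the water channel Aqp5 (-0.41). Scnn1a had 454, 586 and 474 CPM with PBS and 389, 453 and 365 CPM with CRE without an overlap. Atp1b1, a sodium pump subunit, was called higher with pairing (0.26). Cftr had 29.3, 37.2 and 59.9 CPM and 38.3, 64.7 and 53.0 CPM, with an overlap, and was not called.

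Antioxidant genes that are known NRF2 targets rose in part. Of 16 genes of the NRF2 antioxidant list 4 were called, all higher, 15 had a log2 fold change above 0, and the median was 0.44. Gclc and Gclm encode the catalytic and the modifier subunit of glutamate-cysteine ligase, the rate-limiting enzyme of glutathione synthesis. Gclc was at 608, 558 and 725 CPM with PBS and 1199, 1256 and 1553 CPM with CRE (2.12-fold, edgeR adjusted p = 0.00814), and Gclm at 92.3, 88.9 and 103 and 229, 174 and 204 CPM (2.14-fold, edgeR adjusted p = 0.00694). Gsr, glutathione reductase, rose by 0.44 ± 0.06 on the log2 scale and Pgd, which supplies NADPH in the pentose phosphate pathway, by 0.64 ± 0.10. With pairing 9 of the 16 were called, adding Cat, Hmox1, Me1, Prdx1 and Slc7a11. The cystine importer Slc7a11 had the largest change of these, from 155, 91.8 and 156 to 307, 241 and 371 CPM (edgeR adjusted p = 0.00265 with pairing, 0.0797 without). Hmox1, heme oxygenase 1, went from 287, 286 and 352 to 461, 417 and 506 CPM (edgeR adjusted p = 0.00255 with pairing, 0.409 without). Srxn1, Txnrd1 and Sod2 were called in neither fit, with log2 fold changes of 0.59, 0.44 and 0.17.

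Glutathione S-transferases and carbonyl-reducing enzymes outside this list were called as well, and are grouped here after their values were seen. Gsta4, which conjugates lipid peroxidation products, rose from 207, 226 and 206 to 392, 467 and 411 CPM, a log2 fold change of 0.99 ± 0.08 (edgeR adjusted p = 0.000838). Gsta3 rose from 74.5, 76.3 and 68.5 to 130.2, 175 and 140.4 CPM (2.03-fold). Gsta2 and Gm10639 (0.95 and 1.14) belong to a group of near-identical copies, between which the counting may have split reads, and their single values are uncertain. The aldo-keto reductases Akr1b8 and Akr1b3 rose by 1.11 and 0.82, the retinol dehydrogenase Adh7 by 0.80, the cytosolic isocitrate dehydrogenase Idh1 by 0.48 and biliverdin reductase Blvrb by 0.95. Promoter windows of 2 genes of this kind are shown, with the antioxidant response element in capitals, as examples of the pattern whose shares are given above.
Gclm (chr3:122245307-122245606, + strand): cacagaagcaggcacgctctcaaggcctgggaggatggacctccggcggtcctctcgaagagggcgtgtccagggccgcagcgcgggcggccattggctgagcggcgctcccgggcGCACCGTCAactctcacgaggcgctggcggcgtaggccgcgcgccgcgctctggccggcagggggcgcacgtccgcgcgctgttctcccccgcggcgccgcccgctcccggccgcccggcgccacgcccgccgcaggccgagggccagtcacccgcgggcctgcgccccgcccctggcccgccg
Gsta3 (chr1:21240335-21240634, + strand): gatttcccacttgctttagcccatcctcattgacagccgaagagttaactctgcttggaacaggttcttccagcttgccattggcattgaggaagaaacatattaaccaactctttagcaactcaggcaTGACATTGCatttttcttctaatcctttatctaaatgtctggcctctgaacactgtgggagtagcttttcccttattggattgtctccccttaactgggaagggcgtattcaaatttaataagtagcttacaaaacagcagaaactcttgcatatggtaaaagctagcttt
The match was 125 bases before the start in Gclm, where it lies on the opposite strand, and 112 bases before it in Gsta3. The exons of Gclm share 296 bases with Gm17494 on the opposite strand, and since the strand setting of the counting is not given in the sources used here, reads there cannot be assigned to either gene with certainty.

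Further called genes handle metals and heme. Slc39a4, the zinc importer ZIP4, rose from 98.8, 107 and 89.8 to 215, 265 and 259.6 CPM (2.50-fold, edgeR adjusted p = 0.00406). The iron importer Slc11a2 (DMT1) rose by 0.74 ± 0.09 on the log2 scale and the heme transporter Slc48a1 by 0.57 ± 0.08. The metallothioneins, which bind zinc and copper, rose less: Mt2 went from 115, 117 and 117 to 154, 209 and 185 CPM and Mt1 from 203, 226 and 194 to 265, 337 and 299 CPM. Their edgeR adjusted p were 0.0205 and 0.0357, and at most 0.0970 and 0.160 with 1 library left out. Of the 588 exon bases of Mt2, 432 are shared with Gm45774 on the opposite strand. This grouping was made after the values were seen.

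Vnn1 and Vnn3, vanins that release cysteamine from pantetheine, were the 2 called of 9 genes of pantetheine metabolism. Vnn3 had the smallest adjusted p of all genes. It was at 1.83, 1.85 and 1.19 CPM with PBS and 13.0, 10.9 and 14.4 CPM with CRE (7.85-fold, edgeR adjusted p = 0.000651), and Vnn1 was at 101, 89.9 and 116 and 205, 259 and 306 CPM (2.52-fold). The kinases Pank1 to Pank4, which make coenzyme A from pantothenate, were not called. Plet1, a surface glycoprotein of epithelia, rose from 115, 108 and 108 to 242, 312 and 315 CPM (2.62-fold, edgeR adjusted p = 0.00119). Ehf, an epithelial ETS factor, rose by 1.17, the tight junction protein gene Tjp3 by 1.09, the scavenger receptor Cd36 by 1.16, the niacin receptor Hcar2 by 1.77 and the decoy receptor Tnfrsf11b (osteoprotegerin) by 1.25 (log2 fold changes). U90926 rose by 2.55, the transcript 1500015A07Rik, which shares 149 exon bases with Afap1l1 on the opposite strand, by 1.39, Prnd by 1.02, Gtse1 by 0.98, Mid2 by 0.79, Frk by 0.64 and Entpd5 by 0.62. The exons of Prnd lie almost wholly in the annotated Prn gene on the same strand.

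The 7 genes called lower fell less than the leading genes rose. Ndnf, a secreted growth factor, fell most of these, from 556, 679.6 and 789 CPM to 213, 251 and 284 CPM. Its log2 fold change was -1.44 ± 0.19 (edgeR adjusted p = 0.0127, and at most 0.0652 with 1 library left out). Col7a1, the collagen of anchoring fibrils, fell from 12.5, 17.3 and 14.1 to 5.24, 6.38 and 6.74 CPM, 2.39-fold (edgeR adjusted p = 0.0278). Col12a1, a fibril-associated collagen, fell from 89.0, 101 and 85.8 to 55.4, 57.8 and 56.9 CPM, 1.62-fold (edgeR adjusted p = 0.00894). The CRE values of Col12a1 lay within a much narrower range than its PBS values. The long noncoding RNA Neat1, the scaffold of paraspeckles, fell from 838, 973 and 1097 to 615, 607 and 592 CPM (edgeR adjusted p = 0.0314). Gm27505 (-0.72) is an annotated stretch of 110 bases that lies wholly inside Neat1 on the same strand and is not a separate observation. Snx30, a sorting nexin, and Nceh1, a cholesterol ester hydrolase, had log2 fold changes of -0.47 ± 0.07 and -0.40 ± 0.07.

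Other matrix genes were called only with pairing, in both directions. Of 23 tested matrix and protease genes 0 were called without pairing, where 8 had an unadjusted p under 0.05 (2 higher, 6 lower), limma-voom called 0 and DESeq2 called 2. With pairing Fn1 (fibronectin), Col4a2, Lama3, Tnc, Timp2 and Serpinb2 were lower and Mmp3, Adam8 and Plaur higher. Fn1 was at 739.7, 602 and 449.7 CPM with PBS and 518, 409 and 369.6 CPM with CRE, with an overlap (log2 fold change with pairing -0.45 ± 0.08, edgeR adjusted p = 0.0355). Plaur, the urokinase receptor, was at 215, 222 and 218 and 269, 268 and 317 CPM without an overlap (edgeR adjusted p = 0.0256 with pairing, 0.0748 without). Among the 16 genes of the TGF-β list, Tgfb2 was called higher with pairing (0.69) and Tgfb3 and Ltbp1 lower (-0.47 and -0.45). Tgfb1 was at 38.3, 38.7 and 30.6 CPM with PBS and 44.0, 43.2 and 33.8 CPM with CRE and was called in neither fit.

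Several AT1 markers fell with CRE in the paired fit. Of the 13 genes, 12 had a log2 fold change below 0 and the median was -0.41, against -0.003 for all genes. Without pairing 0 were called, 5 had an unadjusted p under 0.05, all lower, limma-voom called 0 and DESeq2 called 1. With pairing 5 were called lower: Ager, Akap5, Aqp5, Clic5 and Emp2. Akap5 and Aqp5 lost the call when the paired fit was made on the 6 KO libraries alone. Ager, the receptor for advanced glycation end products that defines AT1 cells, was at 445, 775 and 573 CPM with PBS and 285, 468 and 353 CPM with CRE. The groups overlapped and replicate 2 was highest in both, while every pair was lower with CRE, with log2 ratios of -0.64, -0.73 and -0.70 (log2 fold change with pairing -0.69 ± 0.04, edgeR adjusted p = 0.00178). Clic5, a chloride channel-like protein of AT1 cells, was at 783, 946 and 911 and 603, 676 and 667 CPM (edgeR adjusted p = 0.00259 with pairing). Pdpn and Hopx, with 63.2 and 149 CPM with PBS, were called in neither fit. In bulk cultures fewer AT1 cells and less RNA of these genes per cell cannot be told apart. The summed AT1 markers were 4629, 6376 and 5405 CPM with PBS and 3740.0, 5037 and 4298 CPM with CRE.

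AT2 markers had a median log2 fold change of 0.02 over 17 genes, and none was called without pairing, where 3 had an unadjusted p under 0.05, limma-voom called 0 and DESeq2 called 2. With pairing Sftpd, the collectin surfactant protein D (0.38), Lamp3 (0.33) and Muc1 (0.94) were higher, and Etv5 and Lpcat1, a transcription factor and a phospholipid acyltransferase of AT2 cells, lower (-0.48 and -0.60). Lpcat1 was at 82.5, 112 and 106 CPM with PBS and 64.0, 65.9 and 66.5 CPM with CRE. Genes of the transitional state between AT2 and AT1 cells went both ways. Tnip3, described above, was called higher in both fits. With pairing Cdkn1a, Ndrg1 and Sfn were also higher and Areg, Clu, Krt7, Lgals3 and S100a6 lower. Areg, the EGF receptor ligand amphiregulin, was at 129.6, 92.0 and 139 CPM and 78.6, 67.7 and 92.2 CPM (-0.59 ± 0.08 with pairing, edgeR adjusted p = 0.0147).

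**Figure D4:**
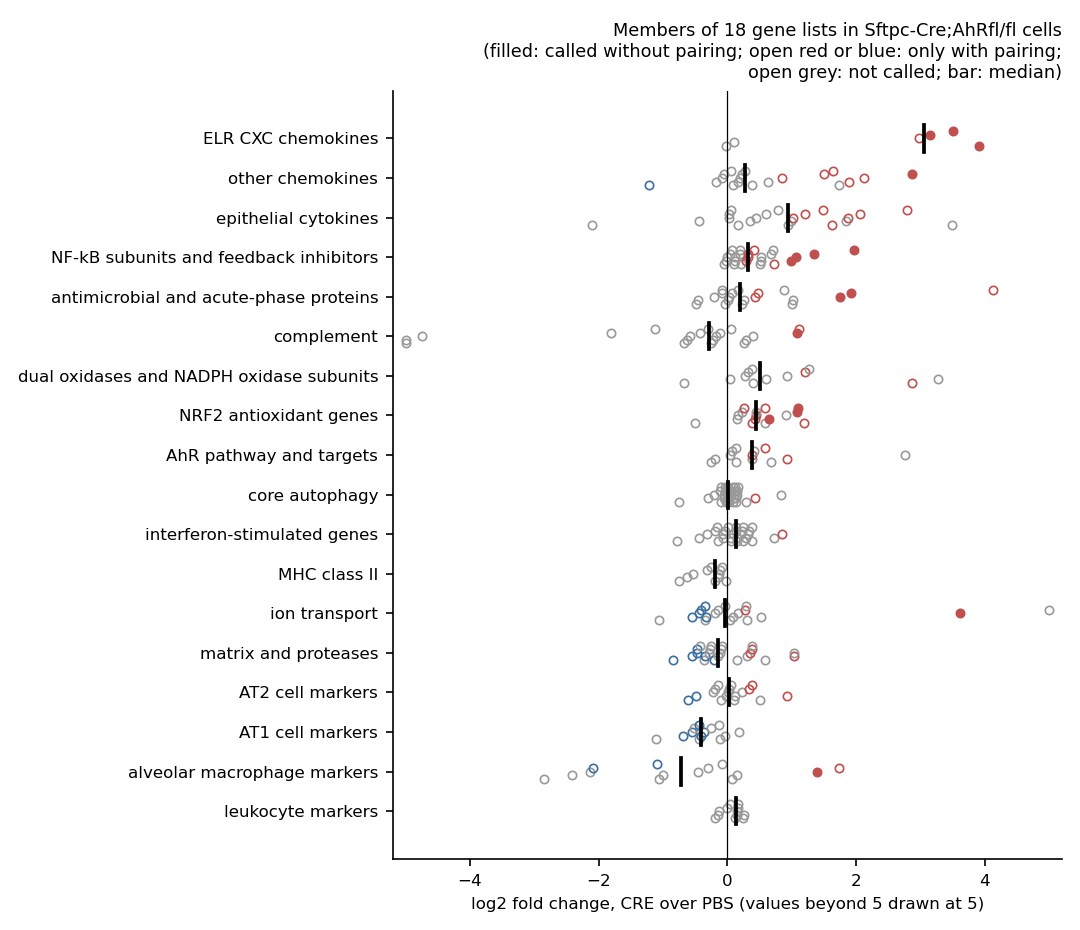
Log2 fold change of CRE over PBS for the tested members of 18 gene lists in Sftpc-Cre;AhRfl/fl cells (values beyond 5 are drawn at 5). Filled points were called without pairing, open red and blue points only with pairing, grey points in neither fit, and black bars are list medians, from 3.06 for ELR CXC chemokines to -0.72 for alveolar macrophage markers.

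Markers of other cell types were read beside these results. Of the lists for leukocytes, neutrophils, lymphocytes and endothelium, 0 genes were called in either fit, by limma-voom or by DESeq2, and 0 had an unadjusted p under 0.05. Of 12 fibroblast markers 10 had a log2 fold change below 0 and 1 had an unadjusted p under 0.05. Mgp, the matrix Gla protein gene, was called lower with pairing, from 17.4, 55.0 and 21.5 CPM to 8.65, 22.3 and 8.25 CPM (-1.23 ± 0.11, edgeR adjusted p = 0.00416, against 0.666 without). Of 8 club cell markers 4 had a log2 fold change above 0 and 4 below, with a median of -0.04. Only Aldh1a1, a retinal dehydrogenase, was called, higher and with pairing (0.50 ± 0.04). The summed club cell markers were lower with CRE in each pair, at 8361, 5221 and 5013 CPM with PBS and 7020, 4937 and 4544 CPM with CRE. The alveolar macrophage list had a median of -0.72 over 14 genes, and its summed level was 166 to 275 CPM with PBS and 367 to 377 CPM with CRE. It holds Plet1. Without Plet1 the sum was 160.4, 66.3 and 58.4 CPM with PBS and 135, 55.9 and 52.0 CPM with CRE. Siglecf, the defining surface lectin of these cells, was at 2.66, 0.693 and 1.02 CPM and 0.190, 0.0547 and 0.354 CPM, and its log2 fold change of -2.86 was called in neither fit. Ear2 and Itgax were lower and Adgre1 higher with pairing. The MHC class II genes, which AT2 cells also express, had 11 of 11 log2 fold changes below 0 and a median of -0.19. In the edgeR test 0 of them were called, 0 had an unadjusted p under 0.05, and neither limma-voom nor DESeq2 called any.

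Targets of AhR were read in these KO cultures, where the deletion covers only cells that have used the Sftpc promoter. The Ahr counts above do not check it, and the study reports AhR deficiency of AT2 cells from these mice by RT-PCR. None of the 13 tested genes of the list was called without pairing, where 4 had an unadjusted p under 0.05, all higher, limma-voom called 0 and DESeq2 called 3. With pairing Nqo1, Aldh3a1 and Nfe2l2 were higher. Nqo1, a quinone reductase that NRF2 also controls, was at 39.4, 50.5 and 38.9 CPM with PBS and 60.9, 75.0 and 57.4 CPM with CRE (log2 fold change 0.59 ± 0.06, edgeR adjusted p = 0.00659), and Nfe2l2, which encodes NRF2, at 309.9, 323 and 316 and 382, 432 and 426 CPM. The cytochrome genes that AhR controls most directly were not called in either fit: Cyp1a1 had 11.2, 6.43 and 5.11 CPM with PBS and 15.2, 6.49 and 8.56 CPM with CRE, and Cyp1b1 had 59.0, 31.7 and 43.3 and 63.9, 33.8 and 43.7 CPM. In both, replicate 1 was highest in each group. Ahrr and Tiparp, the AhR repressor and another direct target, were not called, at 1.11 ± 0.573 and 58.8 ± 13.1 CPM with PBS and 0.934 ± 0.534 and 64.2 ± 10.8 CPM with CRE (mean ± SD, n = 3).

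Core autophagy genes were near 0 as a list. Of 38 genes, all tested, 22 had a log2 fold change above 0 and 16 below, and the median was 0.01. In the edgeR test 0 were called, 1 had an unadjusted p under 0.05 and neither limma-voom nor DESeq2 called any. With pairing 1 was called, Sqstm1, which encodes the cargo receptor p62 and is also an NRF2 target. It was at 1831, 1847 and 2405 CPM with PBS and 2354, 2659.7 and 3172 CPM with CRE, with an overlap set by replicate 3 (log2 fold change 0.43 ± 0.04 with pairing, edgeR adjusted p = 0.00483). Map1lc3b and Gabarapl1, members of the LC3 family, had 201 ± 21.7 and 251 ± 17.1 CPM with PBS and 209 ± 21.4 and 271 ± 35.4 CPM with CRE. Calcoco2, another cargo receptor, was low, at 0.203, 0.328 and 0.285 CPM and 0.648, 0.465 and 0.341 CPM. It was higher with CRE without an overlap and was called in neither fit. S100a9 was at 1.74, 5.62 and 0.380 and 1.38, 5.26 and 0.878 CPM, highest in replicate 2 of both groups.

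The remaining lists held few calls. Of 10 tested mucins Muc1 and Muc20 were called higher with pairing (0.94 and 0.95). Of 28 interferon-stimulated genes only Cxcl10 was called, and only with pairing, with a list median of 0.14. The cell cycle list had a median of 0.21 and the BCL-2 and cell death list one of 0.20, each with 1 gene called with pairing, Cdkn1a (0.25) and Bid (0.49). Glycolysis genes gave Pgk1 and Pkm (0.19 and 0.25), genes of stress of the endoplasmic reticulum gave Ddit4 and Sesn2 (0.27 and 0.29), lipid synthesis gave Scd1 (-0.26) and eicosanoid synthesis gave Ptges (0.56), all with pairing (log2 fold changes). Ptgs2 and the 26 genes of cytokine receptors with their STAT and SOCS genes were not called in either fit.

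Whether the response differed from that of AhRfl/fl cells was tested as the difference of the log2 fold changes. The edgeR test called 0 of 20612 genes (0%), with a smallest adjusted p of 0.135, and 763 genes (3.7%) had an unadjusted p under 0.05. With pairing it also called 0, with a smallest adjusted p of 0.275, and 1874 genes (9.09%) had an unadjusted p under 0.05. Without pairing limma-voom called 1 and DESeq2 called 23. All 54 genes called in the KO cells had the same sign in AhRfl/fl cells, as had all but 15 of the 439 called with pairing. The differences of the 54 lay between -0.84 and 0.73. The absolute change was larger in the KO cells for 38 of the 54. These genes were chosen by their change in KO cells, so this count does not show a stronger response there. Slc26a4 had the highest difference, with log2 fold changes of 2.88 ± 0.36 in AhRfl/fl and 3.61 ± 0.37 in KO cells (difference 0.73, 95% interval -0.37 to 1.83). For Cxcl5 the difference was 0.62 (95% interval -0.45 to 1.70) and for Nfkbia 0.06 (-0.19 to 0.31). The interval of Cxcl5 is the wider.

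Of the 54 genes 5 had an unadjusted p under 0.05 for the difference, and 4 of these were among the 7 called lower. Col12a1 had the smallest, with log2 fold changes of -0.70 ± 0.09 in KO and -0.25 ± 0.09 in AhRfl/fl cells (edgeR difference -0.45, 95% interval -0.74 to -0.16, unadjusted p = 0.00451, adjusted p = 1.000). Col7a1 had -1.25 against -0.42 (difference -0.84, 95% interval -1.47 to -0.21) and Snx30 -0.47 against -0.23. Gm27505, which lies inside Neat1, had -0.72 against -0.23. Entpd5 was the exception, with a rise of 0.62 in KO and of 0.92 in AhRfl/fl cells. None passed the adjustment, so a difference between genotypes was not shown for any of them. The 54 genes were chosen by their change in KO cells, which is also a term of this difference. Their p-values and intervals for the difference are therefore not independent of that choice. Tnip3 had the largest p of the 54, with log2 fold changes of 1.06 and 1.05.

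**Figure D5:**
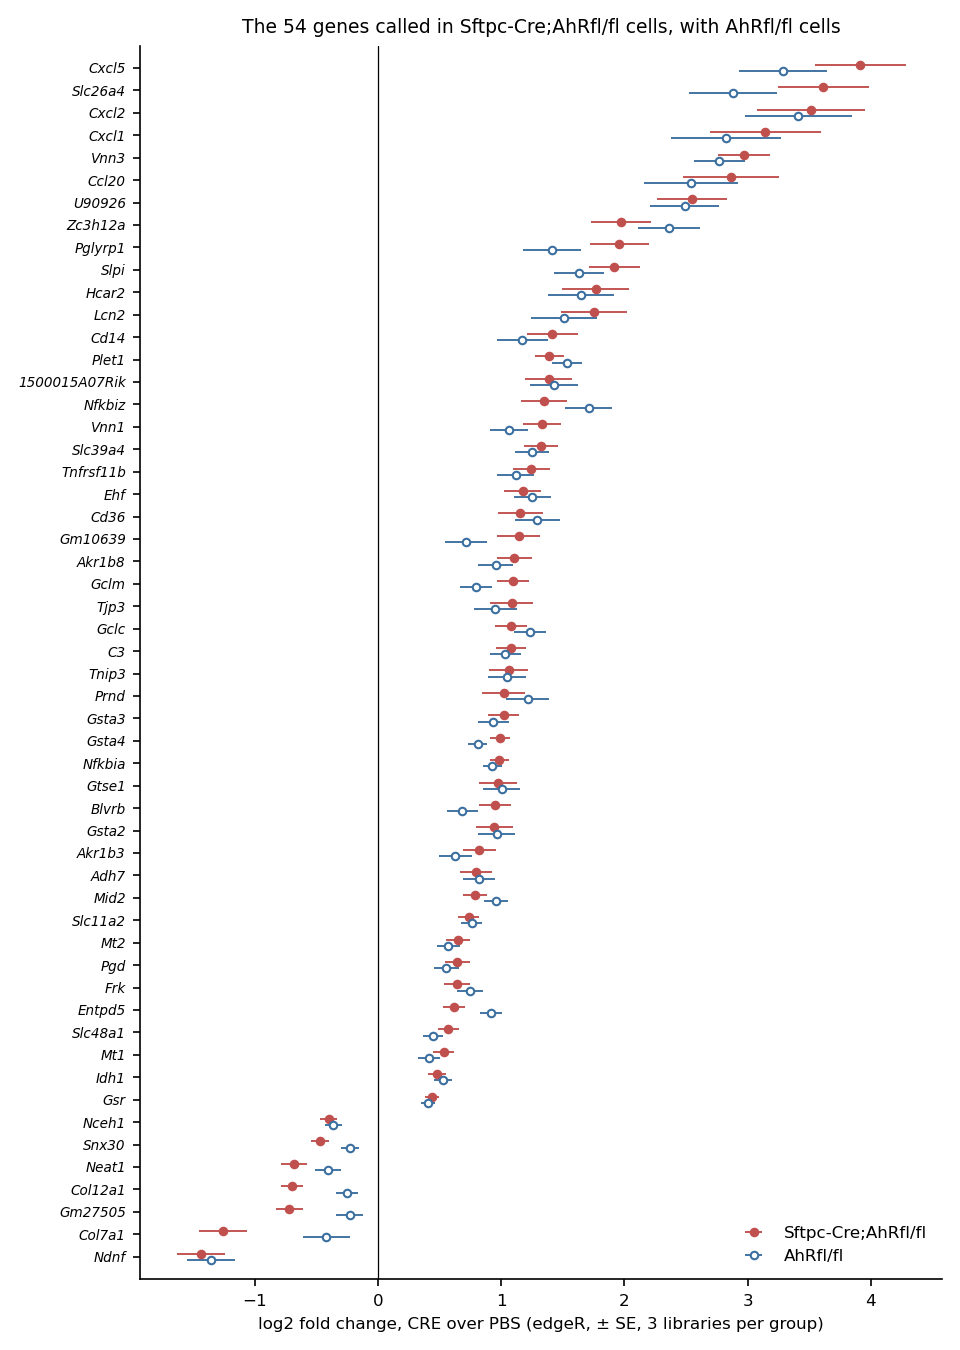
Log2 fold change of CRE over PBS (± SE, 3 libraries per group) of the 54 genes called in Sftpc-Cre;AhRfl/fl cells (red, filled), beside the value of the same gene in AhRfl/fl cells (blue, open). All pairs of points lie on the same side of 0, and the genes were chosen by the red values.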

How the data were processed

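The study measured poly(A) RNA by sequencing in 12 libraries of cultured AT2 cells (TruSeq stranded mRNA), of which the 6 KO libraries are described here. The deposited counts are whole reads per gene that the authors made by alignment with STAR 2.7.2b to GRCm38 and counting with Salmon, per the labels and methods; the strand setting is not given in the sources used here. The deposited FPKM values are those counts per length and depth. They were used for levels between genes and in an alternative fit of the rule of the study's methods. A combined table was not used. Groups come from the labels. Total counts per KO library were 73326817 to 80935797, and floors cover counting error only.

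Genes were kept with filterByExpr (minimum count 10), scaled by TMM and tested with edgeR 4.0.16 (glmQLFit over 12 libraries and 4 group means, R 4.3.3), with Benjamini-Hochberg adjustment over 20612 genes and calls at 0.05. SE is the log2 fold change divided by the square root of F. The rule of the study's methods used limma 3.58.1. DESeq2 1.42.0, limma-voom, other scalings and filters, the KO libraries alone and each library left out were alternatives. The same replicate number deviated together in KO cells (r = 0.589, 0.542 and 0.325 over 14543 genes), so the fit with a replicate block is given too. Different numbers gave -0.465 to -0.061. Deviations were taken from the group mean, which pushes these values below 0, so they add no separate evidence. The pairing comes from the numbers in the labels. The scripts were tested on simulated counts. The text names all called genes and the members of the gene lists called with pairing, with defining members of some lists. Members and lists were chosen with earlier results of these data known. Promoter windows are from RefSeq (GRCm38.p6).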

Additional observations from a re-analysis of the deposited data

Results flagged for a closer look

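Sftpc and Tgfb1 differed in direction between the genotypes, in all 3 pairs of each: every KO pair was higher with CRE and every AhRfl/fl pair lower. The difference of the log2 fold changes was 0.28 for Sftpc (95% interval -0.57 to 1.13, edgeR unadjusted p = 0.459) and 0.25 for Tgfb1 (95% interval -0.39 to 0.90, edgeR unadjusted p = 0.386). With pairing the difference was 0.28 ± 0.03 (SE) for Sftpc (edgeR unadjusted p = 3.84e-05, adjusted p = 0.275, shared with other genes as the smallest of that fit) and 0.24 ± 0.08 for Tgfb1 (edgeR unadjusted p = 0.0163, adjusted p = 0.507). Neither difference passed the adjustment in either fit. Both genes were picked for these opposite signs from 142 named genes that were screened for them. The p-values of the paired fit therefore do not test the pattern independently. How many of the named genes would show such signs by chance was not estimated. Pairing by replicate number was not checked in AhRfl/fl cells.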

How the results depend on the processing

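Against 54 calls, DESeq2 gave 254, the 6 KO libraries alone 13, the replicate block 439 and the block on the KO libraries alone 163, and leaving out 1 library gave 23 to 62. Of the 54, the KO libraries alone kept 8 (Cd14, Cxcl2, Cxcl5, Gsta4, Nfkbia, Plet1, Slc39a4 and Vnn3) and with the block 44, losing Cd36, Gm27505, Hcar2, Idh1, Mt2, Nceh1, Neat1, Pglyrp1, Snx30 and Tjp3. By the rule of the study's methods, against 696 genes, no filter gave 1230 genes, a minimum of 1 CPM 446, adjusted p 58, FPKM 265, the block 1080 and 1 library left out 713 to 831. Scaling by library size gave 346 higher and 347 lower in place of 380 and 316. For the difference between genotypes, against 0, DESeq2 called 23, limma-voom 1 and leave-one-out fits 0 to 2. Among 2272 values of 142 named genes, 7 turned direction, none of a gene called without pairing (Adam8 and Cybb were called with pairing). With 1 library left out the log2 fold change of Adam8 lay between -0.028 (without CRE replicate 1) and 0.69, that of Ahr between -0.051 (without CRE replicate 1) and 0.16, that of Cybb between -0.10 (without CRE replicate 1) and 2.47 and that of Sftpc between -0.24 (without CRE replicate 3) and 0.32. Ahr was at -0.02 and -0.04 without CRE replicate 3 and PBS replicate 2, and Sftpc at -0.17 without PBS replicate 1. The cause was not tested. Of 494 values of the list medians in the edgeR alternatives, 129 moved by more than 1 SD, the largest by 1.05 on the log2 scale. The SD is that of the medians of the 3 pairs.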

Other observations

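The genes of this paragraph were chosen after their values were seen. Trim12a, a TRIM family gene of chromosome 7, was at 0.15, 8.13 and 0.00 CPM in the KO PBS libraries and 0.00, 9.41 and 0.00 CPM in the KO CRE libraries, against 16.1 to 23.1 CPM in AhRfl/fl cells. Its neighbour Trim30d followed the same order, with 1.98 and 2.51 CPM in replicate 2 and at most 0.08 CPM in replicates 1 and 3. Adam1a was at 25.1 ± 5.50 CPM with PBS and 3.88 ± 0.615 CPM with CRE in KO cells (mean ± SD, n = 3), and at 2.69, 4.13 and 13.6 CPM and 13.4, 28.0 and 15.6 CPM in AhRfl/fl cells. Mapkapk5, whose annotated span overlaps that of Adam1a on the same strand of chromosome 5, moved the other way. Its means with PBS and CRE were 40.4 and 64.6 CPM in KO cells and 63.0 and 55.8 CPM in AhRfl/fl cells. How reads were divided between these overlapping genes was not tested. Zfand5 was at 60.4, 67.0 and 82.8 CPM with PBS and 167, 190 and 239 CPM with CRE in KO cells, and at 174, 78.7 and 171 CPM and 88.7, 102 and 113 CPM in AhRfl/fl cells. Zbtb22, a zinc finger gene, was at 35.7 ± 0.355 CPM with PBS and 35.8 ± 4.66 CPM with CRE in KO cells, and at 40.0 ± 1.47 and 9.65 ± 2.75 CPM in AhRfl/fl cells (mean ± SD, n = 3). Its difference between genotypes was 2.06 ± 0.25 (SE). The edgeR adjusted p of this difference was 0.135, the smallest of all genes. It was 0.0265 in limma-voom, where Zbtb22 was the 1 gene called, and 5.66e-11 in DESeq2. The edgeR test of the difference between genotypes called none of the genes of this paragraph (adjusted p = 0.954 for Adam1a and Zfand5). DESeq2 gave an adjusted p of 0.000214 for Zfand5 and also called Adam1a and Mapkapk5.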
